A study of Mus musculus with 2 samples.

Results

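The insulin-like growth factor (IGF) family was examined as 10 genes: the ligands Igf1 and Igf2, the receptors Igf1r and Igf2r, and the binding proteins Igfbp2, Igfbp3, Igfbp4, Igfbp5, Igfbp6 and Igfbp7. They were chosen by symbol, as every probe set that the platform annotation gives to one of these genes and to no other. Each of the 10 had 1 such probe set, among 19938 genes with a probe set of their own. The double-knockout sample was a BALB/c mandible at E18.5 (days of embryonic development, shortly before birth) null for both Myf5 and MyoD, and the wild-type sample was a BALB/c mandible of the same age. Myf5 and MyoD are myogenic transcription factors that direct precursors into the skeletal muscle lineage, and the series concerns what muscle contributes to the growing lower jaw. Total RNA of each sample was hybridised to 1 Affymetrix array. Every difference below therefore compares 1 array with 1 array, has no replicate check and carries no p-value. The number of embryos per sample, and the part of each gene that was deleted, are not given in the sources used here.

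IGF-1 and IGF-2 are small secreted hormones related to insulin. Both signal through the tyrosine kinase receptor encoded by Igf1r, which acts through the PI3K and AKT pathway on growth and survival, whereas the receptor encoded by Igf2r takes IGF-2 into the cell for breakdown. The binding proteins hold the ligands in serum and tissue, where proteases can release them. In the mouse, loss of Igf1, Igf2 or Igf1r gives small fetuses, and the pathway is active in muscle, bone and cartilage.

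MyoD and Myf5 bind the E-box, whose letters are CANNTG, so the RefSeq promoters of the family (GRCm38.p6, 250 bases before to 50 after a gene start) were searched for it. These letters read the same on both strands. The table held 14 promoters for the 10 genes, since Igf2 and Igfbp2 have several starts. The letters occurred in 10 of the 14, against 72.3% of 32851 mouse promoters. By gene, with a match at any start counted, they occurred in 8 of the 10. No share by gene was counted over all genes. The narrower form CAGCTG, which is contained in CANNTG, occurred in 1 of the 14, against 16.3% of all promoters. Shown here are the promoters of the genes with the highest differences (Igfbp4 and Igfbp5) and the lowest (Igf2r), of the gene whose signal went under the floor (Igfbp6), and of the gene with the narrower form (Igf1). Capitals mark CANNTG.
Igfbp4, chr11:99040994-99041293, plus strand: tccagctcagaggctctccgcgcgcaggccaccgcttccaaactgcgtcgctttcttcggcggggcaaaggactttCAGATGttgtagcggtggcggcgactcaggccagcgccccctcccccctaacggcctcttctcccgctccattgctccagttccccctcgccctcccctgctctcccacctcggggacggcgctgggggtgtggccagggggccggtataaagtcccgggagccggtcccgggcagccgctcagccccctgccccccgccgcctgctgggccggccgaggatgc
Igfbp5, chr1:72874816-72875115, minus strand: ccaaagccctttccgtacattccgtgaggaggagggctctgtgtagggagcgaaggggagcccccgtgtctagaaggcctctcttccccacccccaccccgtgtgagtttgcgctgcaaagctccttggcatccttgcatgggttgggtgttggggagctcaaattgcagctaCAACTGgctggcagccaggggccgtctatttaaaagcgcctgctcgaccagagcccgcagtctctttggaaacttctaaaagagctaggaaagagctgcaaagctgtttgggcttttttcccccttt
Igf2r, chr17:12769657-12769956, minus strand: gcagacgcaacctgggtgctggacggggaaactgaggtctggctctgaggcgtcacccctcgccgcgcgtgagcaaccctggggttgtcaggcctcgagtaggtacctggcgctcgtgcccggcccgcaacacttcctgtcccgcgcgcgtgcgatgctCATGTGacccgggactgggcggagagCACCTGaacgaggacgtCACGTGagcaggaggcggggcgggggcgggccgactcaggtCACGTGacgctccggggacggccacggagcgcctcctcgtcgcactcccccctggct
Igfbp6, chr15:102143936-102144235, plus strand: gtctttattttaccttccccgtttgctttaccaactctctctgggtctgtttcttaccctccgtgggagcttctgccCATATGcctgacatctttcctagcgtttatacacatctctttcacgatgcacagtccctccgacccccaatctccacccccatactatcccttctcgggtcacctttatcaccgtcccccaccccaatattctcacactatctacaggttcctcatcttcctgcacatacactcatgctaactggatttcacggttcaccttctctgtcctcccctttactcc
Igf1, chr10:87860861-87861160, plus strand: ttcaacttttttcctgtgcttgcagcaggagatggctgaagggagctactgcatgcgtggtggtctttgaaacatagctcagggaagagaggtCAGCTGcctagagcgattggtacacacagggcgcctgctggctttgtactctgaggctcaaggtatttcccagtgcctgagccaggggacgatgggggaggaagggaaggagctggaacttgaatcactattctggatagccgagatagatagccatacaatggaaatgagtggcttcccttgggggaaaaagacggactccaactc

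The promoter of Igf2r held 4 matches, the most of the 14, and those of Igfbp4, Igfbp5, Igfbp6 and Igf1 held 1 each. A match describes these letters in this window. None was tested for binding here.

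With low signals raised to a floor, no IGF family gene differed by 2-fold between the double knockout and the wild type. This rests on the floor chosen, since Igfbp6 was at least 2-fold lower under a lower floor or with none. The largest differences with the floor were those of Igfbp4 and Igfbp5, 1.29-fold and 1.25-fold higher in the double knockout, and of Igf2r, 1.27-fold lower. The floor is a set cut, and no background level was measured. The deposited values are log2 signals, so a difference of 1 is 2-fold. A floor was set on each array at the median of the probe sets that name 1 gene, which was 6.21 in the double knockout and 6.20 in the wild type, and values under it were raised to it. Of 10336 genes above the floor on at least 1 array, 283 (2.74%) had a signal reduced by 2-fold or more in the double knockout, and in 53 (0.513%) it was raised by as much. In the IGF family 0 of 10 genes were reduced by that much and 0 of 10 raised by that much. At 1.5-fold, which 5.11% of all measured genes reached downward and 3.06% upward, the family again had 0 in either direction. In the double knockout 9 of 10 exceeded the floor, the exception being Igfbp6, and in the wild type all 10 did. Of the targeted genes, Myod1 gave 6.49 in the double knockout, still above the floor, and 7.14 in the wild type, or 1.58-fold lower. Myf5 gave 4.95 in the double knockout, below the floor, and 6.31 in the wild type, so it was at least 1.08-fold lower. Where these probes lie relative to the deleted parts is not known here, so the remaining Myod1 signal checks nothing.

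**Figure D1:**
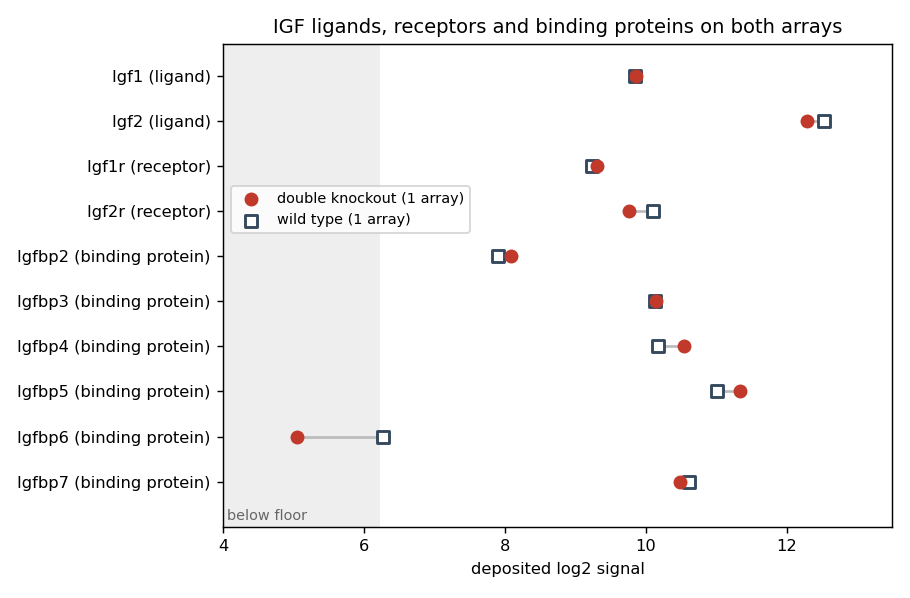
Deposited log2 signal (x axis) of each IGF family gene (rows) on the double-knockout array (red circles) and the wild-type array (open squares), with the region under the floor shaded. Values of different genes come from different probes and are not comparable with each other. Of the 10 pairs, 9 lie close together above the floor, and Igfbp6 lies at 5.05 in the double knockout and 6.27 in the wild type.

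Of the ligands, Igf1 hardly differed between the arrays, and Igf2 was somewhat lower in the double knockout as deposited. Igf1, which growth hormone induces after birth and which many fetal tissues make locally, gave 9.86 in the double knockout and 9.84 in the wild type, a difference of 0.0225. Almost every measured gene (93.2%) lay further from 0 than this. Igf2, the main fetal growth factor of the pair and expressed from the paternal allele, gave 12.29 in the double knockout and 12.52 in the wild type. That is a difference of -0.24, or 1.18-fold lower, and 12.4% of measured genes had a lower one. After quantile normalisation, which forces both arrays onto the same distribution, the Igf2 difference was -0.041. The deposited values of all probe sets ended at 13.34 in the double knockout and 13.35 in the wild type, so Igf2 was read in the top of the range.

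A microRNA gene, Mir483, lies within the span of Igf2 on the same strand and had a probe set of its own. It was chosen after its values were seen. It gave 6.45 in the double knockout and 6.61 in the wild type, both close to the floor. The difference of -0.16 had the sign of that of Igf2, but 53.4% of measured genes lay further from 0. Its choice after the values were seen makes it no check on Igf2. Its mature forms in RefSeq (GRCm38.p6) are printed with the seed, bases 2 to 8, in capitals. The array was hybridised with cRNA from total RNA, and whether the probe set reads the hairpin or its longer precursor was not tested.
mmu-miR-483-3p, chr7:142654932-142654952, minus strand: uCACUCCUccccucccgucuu
mmu-miR-483-5p, chr7:142654968-142654989, minus strand: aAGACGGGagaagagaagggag

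The differences of the receptors were further apart than those of the ligands. Igf1r gave 9.30 in the double knockout and 9.23 in the wild type, a difference of 0.08. Igf2r, the mannose 6-phosphate receptor that clears IGF-2 and is expressed from the maternal allele in mouse, gave 9.75 in the double knockout and 10.10 in the wild type. Its difference of -0.35, or 1.27-fold lower, was the lowest among the 9 genes that exceeded both floors, and 8.46% of measured genes had a lower one. With no replicates, the yardstick available was the disagreement between probe sets of one gene: for 528 genes read by several probe sets, the differences of the top 2 in brightness disagreed with an SD of 0.22. Animal-to-animal and array-to-array variation is not in it. The difference of Igf1r exceeded that of Igf2r by 0.42, and the difference of Igf1 exceeded that of Igf2 by 0.26, both beyond this SD. Of all measured genes taken singly, 39.9% lay further from 0 than this SD. How many pairs of genes lie this far apart was not counted, so neither gap is shown to be unusual. After quantile normalisation the receptors were still 0.42 apart, and the ligands 0.030 apart, within the SD.

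Among the 6 binding proteins, Igfbp4 and Igfbp5 had the highest differences. Igfbp4, which restrains IGF action until the protease PAPP-A cuts it, gave 10.54 in the double knockout and 10.17 in the wild type. The difference was 0.37, or 1.29-fold higher, and was higher than that of 88.8% of measured genes. Igfbp5, a binding protein stored in bone matrix and also made by differentiating muscle cells, gave 11.33 in the double knockout and 11.01 in the wild type. It was 1.25-fold higher, with a difference of 0.32 that was higher than that of 85.1% of measured genes.

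Igfbp2, the neighbour of Igfbp5 on chromosome 1 with 0 protein-coding genes between them, gave 8.08 in the double knockout and 7.90 in the wild type, a difference of 0.18. The differences of the neighbours were 0.14 apart, within the SD between probe sets. Igfbp3, the main carrier of IGFs in adult serum, gave 10.15 in the double knockout and 10.12 in the wild type, a difference of 0.023. Igfbp7, a relative with weak IGF binding that vessels also make, gave 10.48 in the double knockout and 10.62 in the wild type, a difference of -0.14. The 8 endothelial markers examined had a median difference of 0.034, ranging from -0.49 to 0.31. Of the 6 binding proteins, 4 were higher in the double knockout and 2 lower, or 3 and 3 under either other scaling, where Igfbp3 turned. Over all measured genes 66.9% were higher and 32.2% lower, so this split is close to that of the arrays as a whole.

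Igfbp6, which prefers IGF-2 over IGF-1, had the widest gap in deposited signal and could only be bounded. It gave 5.05 in the double knockout, below the floor, and 6.27 in the wild type, just above it. The deposited difference was -1.22, but above the floor only -0.06 of it could be read, or at least 1.04-fold lower. Under a lower floor, at the 25th percentile, Igfbp6 was at least 2-fold lower, as were 2.69% of genes at that setting. The same held with no floor, where 2.16% of genes were at least 2-fold lower. Among 1599 genes that lay, like Igfbp6, within 0.5 above the floor in the wild type, 32 (2%) had a deposited difference as low or lower.

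**Figure D2:**
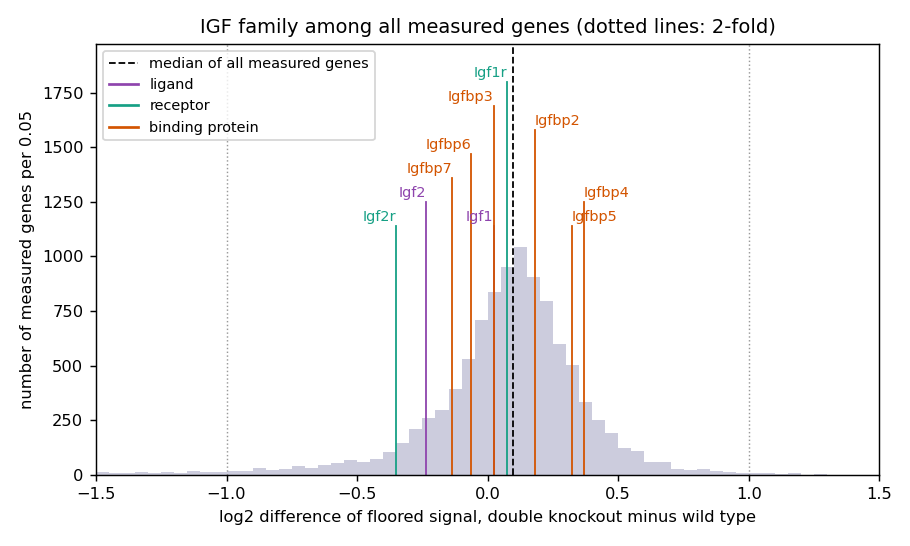
Number of measured genes (y axis) by log2 difference of floored signal, double knockout minus wild type (x axis, bins of 0.05), with a line at the value of each IGF family gene, the median of all measured genes dashed and 2-fold dotted. The axis leaves out 172 genes below -1.5 and 20 above 1.5. The family spans -0.35 for Igf2r to 0.37 for Igfbp4, inside the body of the distribution, and Igfbp6 is drawn at its bound.

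Seen as a group, the family had a median difference of 0.023, against 0.098 for all measured genes. Of the 10, 6 were higher in the double knockout and 4 lower, close to the 66.9% higher and 32.2% lower of all measured genes. The 6 and 4 became 3 and 7 when the differences were centred on the median of all genes, and 4 and 6 after quantile normalisation. The middle of the distribution of all genes, between the 25th and 75th percentiles, ran from -0.06 to 0.24. It held 4 of the 10, with 2 above it (Igfbp4 and Igfbp5) and 4 below it (Igf2, Igf2r, Igfbp6 and Igfbp7). Above the median of all genes lay 3 of the 10 (Igfbp2, Igfbp4 and Igfbp5). Of the 10, 4 lay further from 0 than the SD between probe sets (Igf2, Igf2r, Igfbp4 and Igfbp5), as did 39.9% of all measured genes. That SD is of a gap between 2 probe sets, so for a single gene it is only a rough mark. Igf2 was within that SD after quantile normalisation. The differences of the 10 had an SD of 0.23 among themselves. The genes that turned negative were Igf1, Igf1r and Igfbp3 in the first setting and Igf1 and Igfbp3 in the second, so no direction is given for them.

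**Figure D3:**
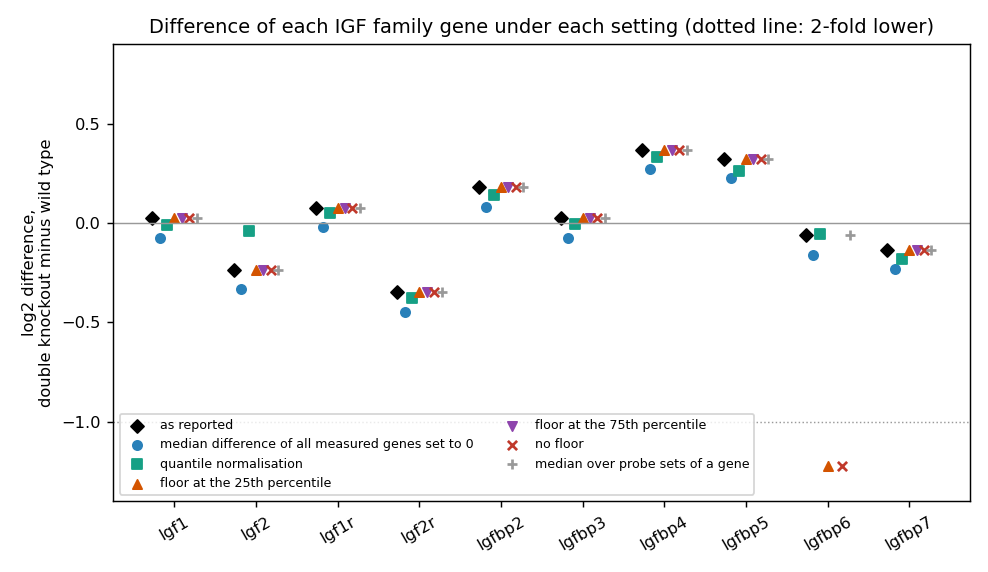
Log2 difference, double knockout minus wild type (y axis), of each IGF family gene (x axis) as reported and under 6 other settings (symbols), with 2-fold lower dotted. Igfbp4, Igfbp5 and Igfbp2 stay above 0 and Igf2, Igf2r, Igfbp6 and Igfbp7 below it under each setting shown that measured them, and Igfbp6 passes 2-fold only with no floor and under the lower floor, at the 25th percentile.

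The pattern of a gene over 2 arrays is 1 number. The genes nearest to the largest difference of the family, that of Igfbp4, were Ripk4, Fzd5 and Acap2, each at 0.37, with Ripk4 below the floor in the wild type. As many as 141 genes lay within 0.01 of Igfbp4, so this likeness does not single out any of them.

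The rest of the IGF pathway was followed in 59 other genes, of which 43 were measured. Another 10 did not reach the floor on either array, and 6 are not analysed here. Of the 43, 1 was reduced by 2-fold or more in the double knockout and 0 were raised as much, against 2.74% and 0.513% of all measured genes. Their median difference was 0.12, against 0.098 for all measured genes, and 0.022 after centring on that median. The binding protein Igfbp1, the acid-labile subunit gene Igfals, which in adult serum joins IGF and IGFBP-3, and insulin (Ins2) were below the floor on both arrays. The ligand-binding relative Igfbpl1 gave 6.54 in the double knockout and 6.05, below the floor, in the wild type.

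The gene at least 2-fold lower was Ccn3, a secreted matrix-associated protein with an IGFBP-like domain. It gave 6.74 in the double knockout and 8.75 in the wild type, both above the floor, a difference of -2.01 or 4.02-fold lower. Of the 6 measured genes of that group, Ccn3 included, 3 were lower and 3 higher. Ccn1, Ccn4 and Ccn5, named after their values were seen, had differences of -0.029, 0.26 and -0.12. Kazald1, an IGFBP-related protein of bone, gave 7.93 in the double knockout and 7.37 in the wild type, or 1.48-fold higher, and Ccn2 gave 9.58 in the double knockout and 9.16 in the wild type, or 1.34-fold higher.

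The proteases that free IGFs from binding proteins were next. Pappa2, which cuts IGFBP-3 and IGFBP-5, had 3 probe sets. Its brightest gave 7.93 in the double knockout and 7.26 in the wild type, a difference of 0.67 or 1.59-fold higher. The other probe sets differed by 0.70 and by 1.02, all in one direction. Its relative Pappa, which cuts IGFBP-4, gave 6.75 in the double knockout and 6.60 in the wild type, and the PAPP-A inhibitor Stc1 gave 6.62 in the double knockout and 6.50 in the wild type. All 4 measured genes of this group were higher in the double knockout, as were 66.9% of all measured genes. Their median was 0.14, against 0.098 for all genes, and 0.038 after centring on that median.

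Other receptors were mixed. The insulin receptor Insr, which also binds IGF-2, gave 8.09 in the double knockout and 8.32 in the wild type, a difference of -0.22, and its other probe set differed by -0.29. The growth hormone receptor Ghr gave 8.87 in the double knockout and 8.52 in the wild type, 1.27-fold higher. Among 10 measured adaptors and brakes of receptor signalling, 6 were higher in the double knockout and 4 lower, near the 66.9% and 32.2% of all measured genes. Of these 10, 0 were at least 1.5-fold apart, a threshold that 5.11% of all measured genes reached downward and 3.06% upward. The phosphatases Ptpn1 and Ptpn11 had differences of 0.32 and -0.30, and the adaptor Gab1 one of 0.25.

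Downstream, 17 genes of the PI3K, AKT, mTOR and FOXO branch had a median of -0.038, with 8 higher in the double knockout and 9 lower (6 and 11 after centring on the median of all genes). Over all measured genes 66.9% were higher and 32.2% lower. The regulatory PI3K subunit Pik3r1 gave 10.10 in the double knockout and 9.52 in the wild type, 1.497-fold higher, and the catalytic subunit Pik3cb gave 7.43 in the double knockout and 6.88 in the wild type, 1.46-fold higher. Akt2, the AKT kinase best known for insulin responses, gave 9.96 in the double knockout and 10.36 in the wild type, 1.33-fold lower. Its dimmer probe set differed by -0.60. The Igf2 mRNA-binding proteins Igf2bp1 and Igf2bp3 and the chromatin protein Hmga2, which supports Igf2bp2 expression, had differences of 0.018, 0.07 and 0.12.

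**Figure D4:**
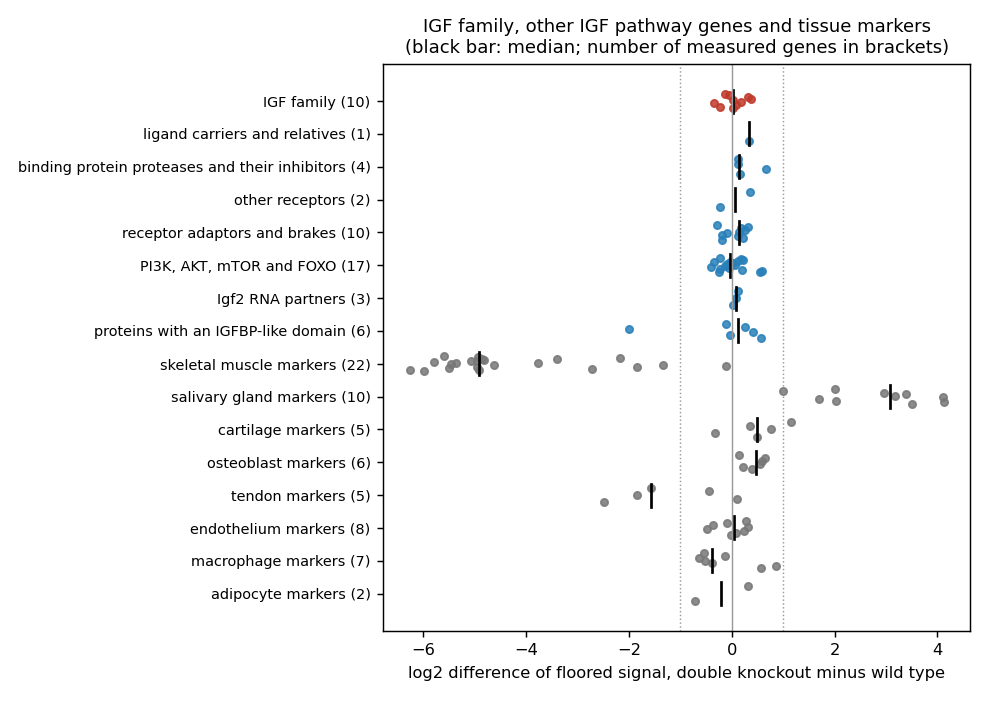
Log2 difference of floored signal, double knockout minus wild type (x axis), for each measured gene of the IGF family (red), of the other IGF pathway groups (blue) and of tissue marker lists (grey), with the median as a black bar and 2-fold as dotted lines. The IGF family lies within 2-fold throughout and Ccn3 is the pathway gene outside it, while skeletal muscle markers lie far to the left and salivary gland markers to the right.

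The tissue around these values was not the same on both arrays. Of 22 skeletal muscle markers, 21 fell short of the wild type by 2-fold or more, with a median of -4.93. For 20 of the 22 the difference is a bound, so this median is one too. The summed linear signal of the 22 as deposited was 862 in the double knockout and 49430 in the wild type. In the double knockout 2 of 22 were above the floor (Actn3 and Des). All 10 salivary gland markers were higher, by 1.003 to 4.12, where 2 of the 10 are bounds. Their summed linear signal as deposited was 21926 in the double knockout and 4063 in the wild type. Of 5 measured tendon markers, 3 were at least 2-fold lower. The 6 osteoblast markers had a median of 0.47 and the 5 measured cartilage markers one of 0.49, of which Ucma was at least 2-fold higher. Macrophage markers, 7 in number, ranged from -0.64 to 0.87. In bulk tissue fewer cells of a type and less RNA per cell cannot be told apart, and what part these shifts have in any IGF value was not tested. The Y-linked transcript Eif2s3y gave 6.55 in the double knockout and 2.38 in the wild type, while Xist, made from the inactive X, gave 10.22 in the double knockout and 10.87 in the wild type. Eif2s3y was only just above the floor in the double knockout. Y-linked Uty (6.20 in the double knockout, 2.43 in the wild type) and Kdm5d (5.27 and 3.42) were under it on both arrays. The double-knockout array thus carried both Xist and Y-linked signal, so these markers do not settle the sex of that sample. The sex markers still differed along with genotype, so for any gene here the part of sex and that of genotype cannot be told apart. Of the 10 family genes, 0 lie on X or Y, which does not separate them.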

How the data were processed

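Per the labels' protocols, cRNA from 1 mandible sample of each genotype was put on Affymetrix arrays. The authors deposited a log2 signal for each of 35557 probe sets. That the values are log2 was read from their range, 1.42 to 13.35. MAS5 is named, without a version, in the submitters' processing notes. Background correction, normalization between arrays and the step that gave logarithms are not given in the sources used here.

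The arrays were compared as deposited, because the 2% trimmed means of the linear signals had a ratio of 1.02 (double knockout over wild type), within the 5% allowed. Probe sets naming 1 gene (21789) entered, and those naming several (1621) or none (12147) did not. Gene names came from GEO's platform annotation, and 19856 of 19938 genes were found in RefSeq (GRCm38.p6) by Entrez identifier. The floor was the median of the 1-gene probe sets of each array. A gene was measured when above it on at least 1 array and was represented by the brightest of its probe sets (mean of the linear signals). Differences are double knockout minus wild type, and a fold is a lower bound where 1 of the values is under the floor.

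With 1 array per genotype no test was possible, and the number of arrays limits the precision. The counting was tested on simulated data with large changes in bright genes only. That test does not cover genes near the floor or differences under 2-fold. The family and all lists were chosen with earlier results of these data known. By rule, all family genes are named with every probe set, as are Myf5, Myod1 and the 3 genes nearest to the largest family difference. Of each pathway group, up to 3 measured genes with the largest differences in either direction are named. Mir483, Ccn1, Ccn4 and Ccn5 were added after their values were seen. Outside the rule are also Igfbp1, Igfals and Ins2, below the floor on both arrays, and some tissue and sex markers. Alternatives were other scalings, floors, gene summaries and fold thresholds. Python 3.11.15, numpy 2.4.6 and pandas 2.3.3 were used.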

Additional observations from a re-analysis of the deposited data

How the results depend on the processing

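No paired analysis was possible because each genotype has 1 array, and no array could be left out. Over scaling, floor, gene summary and fold threshold, 0 family genes were raised 2-fold or more in the double knockout under each alternative run. The count at least 2-fold lower was 0 except with no floor and for a floor set at the 25th percentile, where it was 1 in each case (Igfbp6, -1.22). Igfbp6 was not measured under a floor at the 75th percentile. The largest shift of any other family gene was that of Igf2, which was -0.041 after quantile normalisation and -0.33 with the median of all genes set to 0. The cause was not tested.

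The family median was -0.07 with the median of all genes set to 0 and -0.0080 after quantile normalisation. Of the 43 measured genes of the wider pathway, 1 was at least 1.5-fold higher (Pappa2) and 1 at least 1.5-fold lower (Ccn3). Of all measured genes 3.06% and 5.11% were. Those at least 2-fold lower and higher in the double knockout were 138 and 21 of 5275 measured genes under the 75th-percentile floor. With no floor they were 431 and 78 of 19938. At the main floor, of 10336 measured genes, 528 and 316 were lower and higher at 1.5-fold, and 160 and 18 at 3-fold. Averaging a gene's probe sets by their median left the family as it was, since each has 1 probe set.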
